A study of Mus musculus with 50 samples.

Results

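Expression of 9 genes of the perineuronal net and of the wider hyaluronan matrix was measured in mouse frontal cortex from mid-gestation to adulthood.
The genes were taken by name and were found in the count files through the GENCODE vM21 annotation, 9 of 55487 genes listed and of 21897 protein-coding genes.
They were the lecticans Acan, Bcan, Ncan and Vcan, the link proteins Hapln1, Hapln2 and Hapln4, and the tenascins Tnr and Tnc.
Poly-A RNA was sequenced from 50 frontal cortices, 5 wild-type (WT) and 5 Setd1a+/- mice at embryonic day 14 (E14) and E18 and at postnatal day 7 (P7), P35 and P70.
Setd1a encodes a histone H3 lysine methyltransferase of the COMPASS family, and the question asked of each gene was whether its level changed between ages and whether it differed between genotypes.
The Setd1a+/- mice carried 1 copy of the tm1d loss-of-function allele in every cell, no further treatment was given, and WT siblings carried no modified allele.
The sample labels give the strain of every mouse as C57BL/6NTac, whereas the methods of the study state that C57BL/6 J was mixed into this background and place the embryos a fraction of a day later than the labels do.
Embryonic tissue was the frontal brain region and later tissue the frontal cortex, taken from both hemispheres.
A library therefore pools all cell types of the dissected piece, and in such data fewer cells of a type and less RNA per cell cannot be told apart.

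The perineuronal net is a lattice of matrix that condenses around the soma and proximal dendrites of certain neurons, chiefly parvalbumin-containing interneurons, late in postnatal development.
Its backbone is hyaluronan, a long sugar chain made at the cell surface.
Lecticans are chondroitin sulfate proteoglycans that bind hyaluronan by one end, link proteins lock that bond, and tenascins join lecticans to each other at the far end.
In the immature brain the matrix is looser and rich in neurocan, versican and tenascin-C, while in the adult brain brevican, aggrecan and tenascin-R are its usual components.
The net is known for closing critical periods of plasticity in cortex.

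All 9 genes were among the 16330 protein-coding genes that passed the filter on low counts, and libraries held 35507165 to 43907318 counts.
Setd1a itself was not lower in Setd1a+/- libraries, with means of 108%, 114%, 112%, 106% and 98.2% of WT from E14 to P70, and over all ages it was called higher (log2 fold change 0.10, SE 0.0251, adjusted p = 0.00679, edgeR).
These counts sum all exons of the gene and do not show the deleted part, so they do not check the genotypes, which are those of the labels.
The study describes its mice as male, but WT library 5 at E14 and WT library 2 at E18 held Xist counts and next to no Y-linked counts.
WT library 2 at P7 stood apart in its cell type markers, with summed mature oligodendrocyte markers of 1490 CPM (counts scaled to a common library total) against 203 to 263 CPM in the other 9 libraries of its age and choroid plexus markers of 747 CPM against 51.5 to 65.3 CPM.
Genotype results that changed most without these 3 libraries are given with and without them.
Setd1a+/- library 2 at E14 also stood apart, with meningeal fibroblast markers of 2060 CPM against 45.9 to 759 CPM in the other 9 libraries of its age and endothelial and pericyte markers of 801 CPM against 177 to 308 CPM, 7 of 7 genes above in each list.
Markers of excitatory neurons summed to between 918 and 5750 CPM over all libraries, with 2 of the 6 called higher and 4 lower from E14 to P70. Striatum markers differed between libraries of an age, from 438 to 1090 CPM at P35 and from 307 to 1250 CPM at P70. Pvalb, the defining gene of parvalbumin interneurons, had 0 to 7 counts in embryonic libraries.

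In GRCm38, 3 of the 4 lectican genes lie next to a link protein gene of the list with no protein-coding gene between them.
Bcan lies on chromosome 3 from 87987531 to 88000230 on the minus strand, and Hapln2 from 88021750 to 88027583 on the same strand, 21.5 kb away.
Ncan lies on chromosome 8 from 70093085 to 70120873 on the minus strand, and Hapln4 from 70083457 to 70090862 on the plus strand, 2.22 kb away.
Vcan lies on chromosome 13 from 89655312 to 89742509 on the minus strand, and Hapln1 from 89539796 to 89611652 on the plus strand, 43.7 kb away.
Acan, on chromosome 7 from 79053483 to 79115099 on the plus strand, adjoins Hapln3, which is not one of the 9 genes.
The tenascin genes lie apart, Tnr on chromosome 1 from 159523769 to 159931729 on the plus strand and Tnc on chromosome 4 from 63959785 to 64047015 on the minus strand.
Antisense transcripts share 3.44% of the exon bases of Tnr and 2.26% of those of Tnc, and counts made without strand cannot separate them.

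The promoters of these genes differed in CpG content, which is of interest because Setd1a methylates histone H3 at promoters and CpG-rich promoters are its usual sites.
RefSeq (GRCm38.p6) gave a start for 8 of the 9 genes, all but Hapln4, and CG was counted in the 250 bases before it.
Over all 32851 RefSeq entries the median was 6 CG, and 92.1% held at least 1.
The Acan window held 26 CG, a number reached by 9.59% of entries, and the Bcan window held 16, reached by 25.4%.
The Vcan window held 10 and the Ncan window 6, the latter reached by 50.4% of entries.
Tnc had 2 entries, with 8 and 10. Hapln1, Hapln2 and Tnr each held 2, and 29% of entries held as few or fewer. The Hapln1 window has 0 bases outside annotated exons and starts inside the gene as the counts annotate it, so its CG number is one of exon sequence.
The letters TATAAA, searched on both strands, stood in the Ncan and Tnc windows and in 12.4% of all entries.
The windows of Acan, Bcan and Vcan and the part of the Hapln2 window outside annotated exons are printed 5′ to 3′ to show the range, with each CG in capitals. No binding or methylation was measured at them.
Acan, chr7:79052976-79053225, plus strand: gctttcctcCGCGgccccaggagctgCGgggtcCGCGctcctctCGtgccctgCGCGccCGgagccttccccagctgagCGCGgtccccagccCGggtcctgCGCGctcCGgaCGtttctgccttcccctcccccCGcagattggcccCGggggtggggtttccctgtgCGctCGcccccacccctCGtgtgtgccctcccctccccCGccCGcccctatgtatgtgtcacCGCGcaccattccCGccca
Bcan, chr3:88000357-88000606, minus strand: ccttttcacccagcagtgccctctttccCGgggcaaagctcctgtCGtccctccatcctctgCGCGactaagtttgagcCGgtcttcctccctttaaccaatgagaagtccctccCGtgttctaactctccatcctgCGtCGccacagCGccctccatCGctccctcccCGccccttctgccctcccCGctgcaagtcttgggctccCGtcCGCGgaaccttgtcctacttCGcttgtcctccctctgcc
Vcan, chr13:89742513-89742762, minus strand: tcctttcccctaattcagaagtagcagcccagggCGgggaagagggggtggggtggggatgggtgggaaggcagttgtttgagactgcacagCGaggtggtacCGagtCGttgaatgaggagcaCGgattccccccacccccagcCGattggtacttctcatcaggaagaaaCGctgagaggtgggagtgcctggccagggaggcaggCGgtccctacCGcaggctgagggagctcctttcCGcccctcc
Hapln2, chr3:88027584-88027761, minus strand: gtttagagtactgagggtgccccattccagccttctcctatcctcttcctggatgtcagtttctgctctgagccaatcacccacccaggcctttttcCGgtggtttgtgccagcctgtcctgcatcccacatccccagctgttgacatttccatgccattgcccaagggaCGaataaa

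Most of these genes changed several-fold with age, and the composition of the family turned over between E18 and P35.
The 4 steps between neighbouring ages and the span from E14 to P70 were each tested by edgeR's quasi-likelihood method over all 16330 genes with Benjamini-Hochberg adjustment and called at an adjusted p under 0.05.
From E14 to E18 all 9 genes were called, 8 higher and 1 lower, where 36% of all genes were called higher and 37.4% lower.
From E18 to P7 the count was 8, 6 higher and 2 lower, against 37.9% and 38.2% of all genes.
From P7 to P35 it was 6, 3 higher and 3 lower, against 38% and 38.1%.
From P35 to P70 only Ncan, Vcan and Tnc were called, all lower, against 5% of genes higher and 4.75% lower.
Over the whole span from E14 to P70 all 9 were called, 6 higher and 3 lower, against 44.7% and 45.1%, so being called was common among all genes and the size of the change tells more.

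The median size of the change from E14 to P70, without regard to sign, was 3.97 on the log2 scale for the 9 genes and 0.92 for all genes.
For the first 3 steps the medians of the 9 genes were 1.08, 1.15 and 1.17, beside 0.36, 0.40 and 0.42 for all genes.
For the step from P35 to P70 they were 0.21 and 0.08.
With WT or Setd1a+/- libraries alone, the sign of the change was shared by both genotypes for all 9 genes in the first 3 steps and over the whole span, and for 8 in the last step.
The step from P7 to P35 had the same 6 genes called in each genotype.

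**Figure D1:**
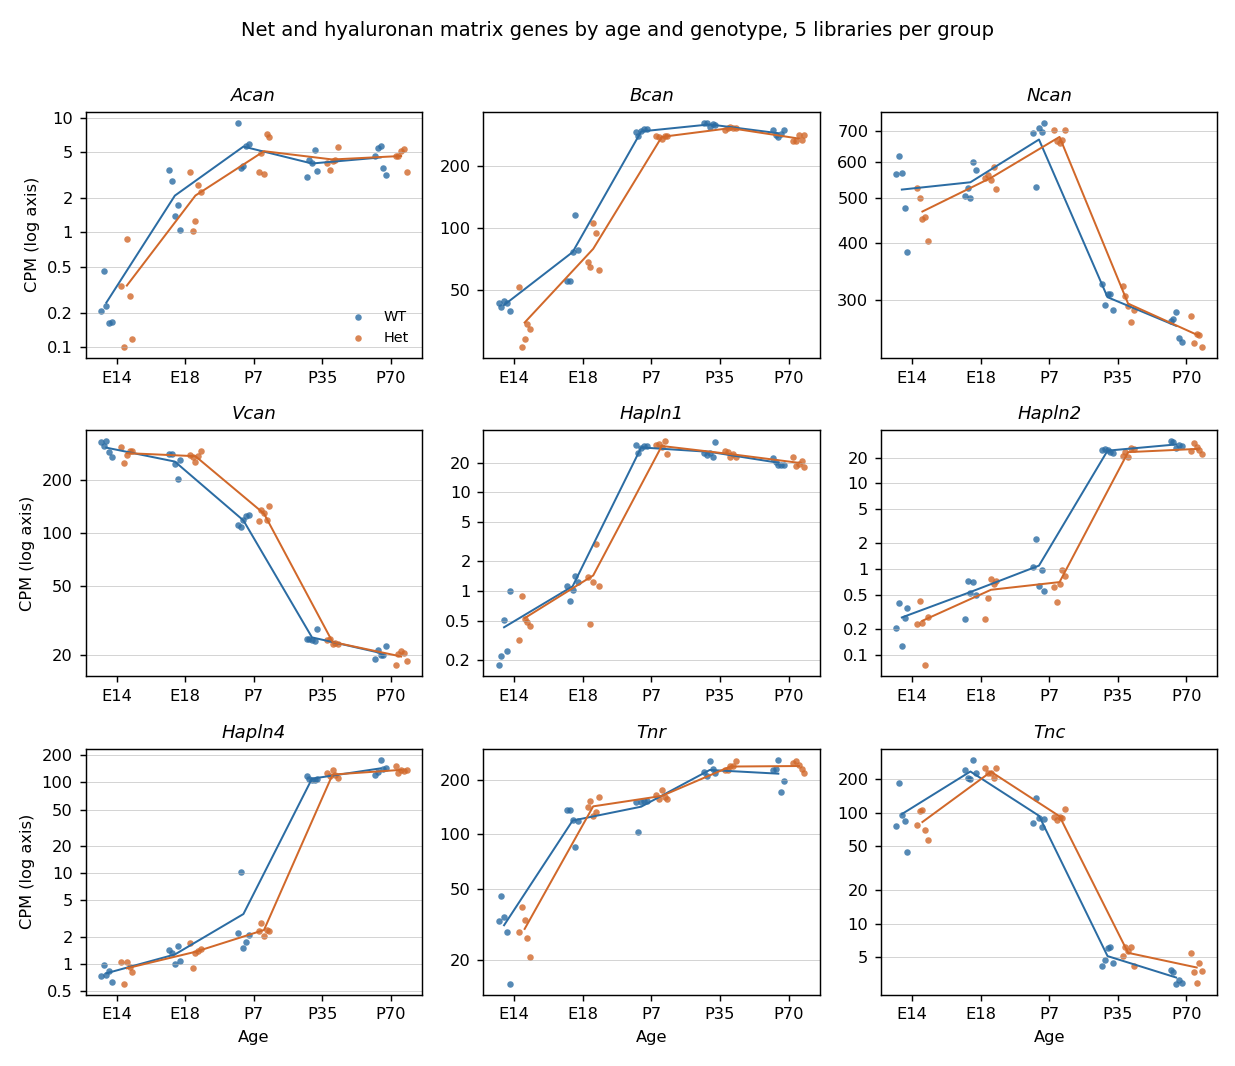
CPM of each of the 9 genes in every library at E14, E18, P7, P35 and P70 on a log axis, with WT and Setd1a+/- (Het) libraries in separate colours and a line through the group means. Acan, Bcan, Hapln1, Hapln2, Hapln4 and Tnr end above their E14 level, while Ncan, Vcan and Tnc end below it.

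Levels were compared between genes as RPKM, which divides CPM by the exon length in kb.
At E14 the order was Ncan, with a mean of 68.8 ± 10.5 RPKM (SD, n = 10), then Vcan (20.4 ± 1.77), Tnc (11.5 ± 5.03), Bcan (9.45 ± 1.94) and Tnr (2.37 ± 0.681).
Tnc overlapped both Vcan and Bcan. The 3 link proteins and Acan were all at a mean of 0.215 RPKM or less, and each overlapped its neighbour in that order.
At P7 Ncan (93.7 ± 7.79 RPKM) and Bcan (70.5 ± 2.76) stood first, and their ranges met only in WT library 2 of that age.
At P35 Bcan (77.1 ± 2.05 RPKM) was above Ncan (41.7 ± 2.49) in every library, and Hapln4 (29.4 ± 2.35) and Tnr (18.1 ± 1.15) followed with no overlap between neighbours.
At P70 the order was the same at the top, although Ncan (35.9 ± 2.29 RPKM) and Hapln4 (35.6 ± 3.94) no longer differed beyond their spread.
Acan, the defining proteoglycan of the net, was among the lowest at every age, at 0.612 ± 0.119 RPKM at P70, where it overlapped Tnc (0.473 ± 0.102).

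Among the lecticans, Ncan held 69.5% ± 2.78 (SD, n = 10) of the summed RPKM at E14 and 33.5% ± 1.79 at P70, while Bcan went from 9.58% ± 1.6 to 64.6% ± 1.84.
The exchange fell largely between E18 and P35, when the mean share of Bcan was 16.6%, 40.7% and 63.7% in turn.
Vcan held 20.8% at E14, 4.91% at P7 and 1.3% at P70, and Acan never held more than 0.697% in a library.
The summed lectican level was highest at P7, at 174 ± 9.63 RPKM, and was 107 ± 3.74 RPKM at P70, near the 98.7 ± 12.8 RPKM of E14.
Per CPM instead of RPKM, without regard to length, the P70 shares were 49.8% for Bcan and 45.8% for Ncan, and Bcan was above Ncan in 8 of 10 libraries at P70 and 7 of 10 at P35.
Link proteins behaved differently in total. Their summed level went from 0.406 ± 0.0648 RPKM at E14 to 6.07 ± 0.747 at P7, 43.6 ± 1.89 at P35 and 50.3 ± 3.55 at P70.
As a percent of the summed lectican level, they were 0.421% at E14, 3.53% at P7, 36.1% at P35 and 47% at P70.
Hapln1 held 82.2% ± 9.86 of the link protein RPKM at P7, and Hapln4 held 67.3% ± 2.71 at P35.
The log2 ratio of Tnr to Tnc RPKM was −2.24 ± 0.227 at E14, close to 0 at P7, with a range of −1.13 to 0.32, and 5.25 ± 0.296 at P70.

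**Figure D2:**
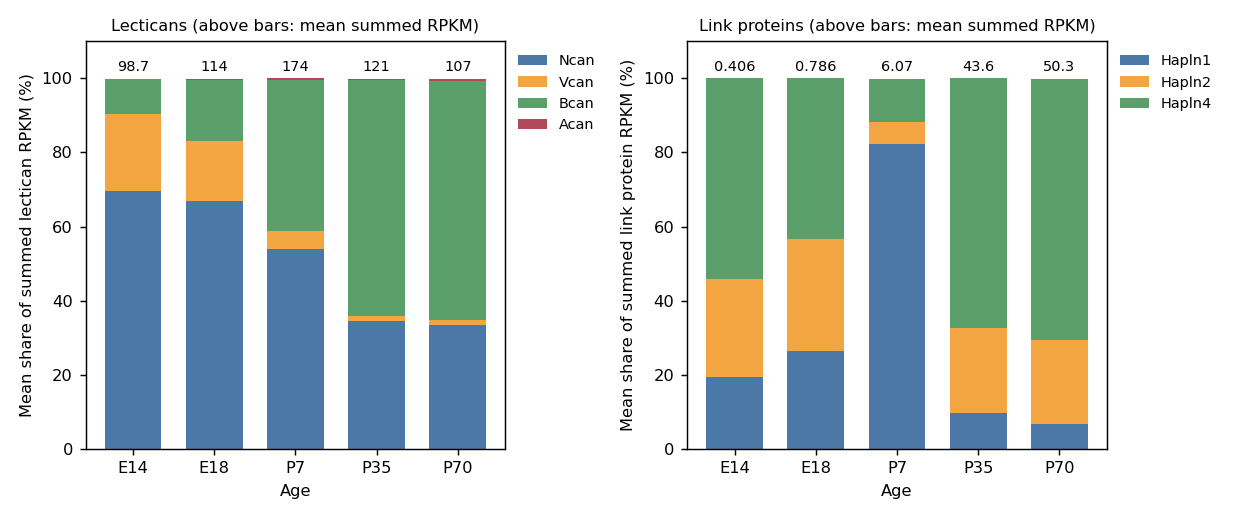
Stacked bars give the mean share of each lectican (left) and each link protein (right) in the summed RPKM of its family, in percent, at the 5 ages over 10 libraries of both genotypes. The number above a bar is the mean summed RPKM. Bcan replaces Ncan as the largest lectican share between P7 and P35, and Hapln1 is the largest link protein share at P7, where it holds 82.2%.

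Aggrecan, the core protein of the mature net, was near the floor at E14 and increased in 2 steps.
Acan had 4 to 34 counts per library at E14, a lowest, median and highest level of 0.101, 0.216 and 0.882 CPM.
At E18 these were 1.03, 1.98 and 3.5 CPM, at P7 3.26, 5.3 and 9.01 CPM, and at P70 3.14, 4.66 and 5.64 CPM.
No E18 library overlapped E14, and E18 overlapped P7 only narrowly.
Acan rose 7.21-fold from E14 to E18 (log2 fold change 2.85, SE 0.288, adjusted p = 5.2e-12), and 1.02% of genes changed more in that step.
It rose 2.55-fold from E18 to P7 (log2 fold change 1.35, SE 0.234, adjusted p = 1.63e-06).
From P7 to P35 its log2 fold change was −0.36 (SE 0.227, adjusted p = 0.14), and from P35 to P70 0.14 (SE 0.228, adjusted p = 0.786).
Beside this, summed parvalbumin interneuron markers went from 280 to 428 CPM at P7 to 775 to 918 CPM at P35. In that step 7 of 9 genes were called higher and 1 lower, while Acan was not called. In the earlier steps from E14 to E18 and from E18 to P7, in which Acan rose, 6 of 9 were called higher in each. Those called lower were 1 and 2 in turn. The part of these markers in the change of Acan was not tested.

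Brevican, a lectican made largely by astrocytes and also by oligodendrocyte precursors, increased until P7 and was not called in the later steps.
Bcan had a lowest, median and highest level of 26.4, 40.2 and 51.8 CPM at E14, 55.2, 72.6 and 116 CPM at E18, and 271, 282 and 302 CPM at P7.
At P35 these were 301, 311 and 325 CPM and at P70 264, 283 and 301 CPM.
The first 3 ages did not overlap, whereas P7 and P70 covered nearly the same range.
Bcan rose 2.03-fold from E14 to E18 (log2 fold change 1.02, SE 0.0966, adjusted p = 6.62e-13) and 3.69-fold from E18 to P7 (1.88, SE 0.0973, adjusted p = 1.23e-21).
The steps to P35 (log2 fold change 0.13, adjusted p = 0.211) and to P70 (−0.16, adjusted p = 0.322) were not called.
Summed astrocyte markers were 529 to 818 CPM at E18, 1570 to 2180 CPM at P7 and 4070 to 4460 CPM at P35. Of the 8 genes, 7 were called higher and 1 lower from E18 to P7, and 3 higher and 2 lower from P7 to P35. Oligodendrocyte precursor markers summed to 172 to 240 CPM at E18 and 430 to 516 CPM at P7, with 6 of 6 called higher. From P7 to P35, 1 of the 6 was called higher and 3 lower. The part of both lists in the change of Bcan was not tested.

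Neurocan, a lectican of the immature brain made mainly by neurons, had the smallest range of the 9 genes, with its highest age mean 2.61 times its lowest.
Ncan had a lowest, median and highest level of 382, 489 and 618 CPM at E14, 500, 551 and 599 CPM at E18 and 528, 692 and 728 CPM at P7.
At P35 these were 269, 300 and 326 CPM and at P70 238, 252 and 283 CPM.
The 3 early ages overlapped one another, and every library at P35 and P70 was below every earlier one.
Ncan rose by 0.15 on the log2 scale from E14 to E18 (SE 0.0587, adjusted p = 0.0229) and by 0.30 from E18 to P7 (SE 0.0588, adjusted p = 1.24e-05).
The first of these calls was lost when WT library 5 or Setd1a+/- library 5 at E14, or WT library 4 at E18, was left out (adjusted p = 0.0756, 0.0592 and 0.0559), and in WT libraries alone its log2 fold change was 0.05 (adjusted p = 0.596).
From P7 to P35 Ncan fell 2.25-fold (log2 fold change −1.17, SE 0.0596, adjusted p = 3.97e-22), and it fell by 0.21 on the log2 scale from P35 to P70 (adjusted p = 0.0141).

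Versican, the lectican of the loose embryonic matrix, fell in every step.
Vcan had a lowest, median and highest level of 250, 294 and 332 CPM at E14, 203, 271 and 291 CPM at E18 and 108, 122 and 143 CPM at P7.
At P35 these were 23.1, 24.6 and 28.4 CPM and at P70 17.6, 20.3 and 22.6 CPM.
Only E14 and E18 overlapped.
The log2 fold changes were −0.16 (SE 0.0493, adjusted p = 0.00333), −1.10 (SE 0.05, adjusted p = 1.4e-23), −2.32 (SE 0.0528, adjusted p = 4.17e-35) and −0.29 (SE 0.0523, adjusted p = 0.000249) in order of age.
In Setd1a+/- libraries alone the first step was −0.06 (adjusted p = 0.47).
From E14 to P70 Vcan fell 14.6-fold.
Radial glia and progenitor markers, of which 8 of 8 were called lower from E14 to P70, summed to 1560 to 2140 CPM at E14 and 93.9 to 142 CPM at P70. Their part in the fall of Vcan was not tested.

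Among the link proteins, Hapln1, the cartilage link protein that also stabilises nets, had its largest rise between E18 and P7, a step before the largest rise of the other two.
Hapln1 had 6 to 42 counts per library at E14, with a lowest, median and highest level of 0.176, 0.461 and 0.993 CPM.
At E18 these were 0.462, 1.17 and 2.99 CPM, and at P7 24.6, 29.6 and 33 CPM, so that P7 lay far above both embryonic ages.
At P35 they were 22.8, 24.7 and 32.4 CPM and at P70 18.1, 19.3 and 22.9 CPM, with overlap between neighbours.
Hapln1 rose 22.8-fold from E18 to P7 (log2 fold change 4.51, SE 0.171, adjusted p = 2.5e-26), and 26 of 16330 genes, 0.159%, changed more in that step.
It had risen 2.61-fold from E14 to E18 (adjusted p = 2.95e-07).
The later steps had log2 fold changes of −0.21 (SE 0.138, adjusted p = 0.161) and −0.33 (SE 0.139, adjusted p = 0.127).
Under limma-voom both of these steps were called lower.

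Hapln2, the link protein found at nodes of Ranvier on myelinated axons, and Hapln4, the link protein that holds brevican around inhibitory terminals, increased together between P7 and P35.
Hapln2 had a lowest, median and highest level of 0.0758, 0.252 and 0.43 CPM at E14 (3 to 17 counts), 0.261, 0.598 and 0.758 CPM at E18 and 0.414, 0.753 and 2.26 CPM at P7.
At P35 these were 20.4, 23.9 and 25.9 CPM and at P70 22.1, 26.7 and 30.9 CPM.
For Hapln4 they were 0.607, 0.827 and 1.06 CPM at E14 (24 to 41 counts), 0.897, 1.36 and 1.72 CPM at E18 and 1.49, 2.23 and 10.2 CPM at P7.
Both genes stayed low until P7, where a single library, WT library 2, held the highest value of each.
At P35 Hapln4 was at 106, 114 and 135 CPM and at P70 at 121, 137 and 177 CPM.
From P7 to P35 Hapln2 rose 26.5-fold (log2 fold change 4.73, SE 0.172, adjusted p = 1.45e-27) and Hapln4 39.5-fold (5.30, SE 0.187, adjusted p = 4.09e-28).
In that step 0.251% and 0.129% of genes changed more.

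The earlier steps of this pair were smaller, and some were not called within a single genotype.
From E14 to E18 Hapln2 rose by 1.08 on the log2 scale (SE 0.247, adjusted p = 0.000143) and Hapln4 by 0.65 (SE 0.265, adjusted p = 0.0255), the latter not called in either genotype alone (adjusted p = 0.105 and 0.145).
From E18 to P7 they rose by 0.66 (SE 0.205, adjusted p = 0.00353) and 1.15 (SE 0.22, adjusted p = 9.78e-06). Without the 3 libraries that stood apart these were 0.50 (SE 0.186) and 0.68 (SE 0.109), and both were still called. In Setd1a+/- libraries alone the step of Hapln2 was 0.30 (adjusted p = 0.382).
From P35 to P70 Hapln4 had a log2 fold change of 0.28 (adjusted p = 0.248), which was called when WT library 2 at P7 was left out of the fit (adjusted p = 0.00174). In both fits all ages share an estimate of each gene's spread. Under limma-voom both Hapln4 (0.27, adjusted p = 0.00318) and Hapln2 (0.18, adjusted p = 0.0413) were called higher in this step, with 10.1% of all genes called.
Over the 50 libraries, log2 CPM of Hapln2 and Hapln4 had a Pearson r of 0.985, which reflects the shared ages. Within groups, as deviations from the group mean, r was 0.276, and it was −0.211 without WT library 2 at P7 and −0.645 over the 20 libraries of P35 and P70.

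Markers of several cell types moved with both genes.
Mature oligodendrocyte markers summed to 203 to 263 CPM in 9 libraries at P7, 4880 to 6740 CPM at P35 and 3540 to 4790 CPM at P70, and 8 of 8 genes were called higher from P7 to P35.
Opalin, which marks myelinating oligodendrocytes, had 0 to 3 counts at E14 and 661 to 883 at P35.
From P7 to P35, 7 of 9 parvalbumin interneuron (with 1 lower), 6 of 6 microglia, 6 of 6 striatum and 5 of 5 red blood cell markers were called higher as well.
Across the 50 libraries the mean log2 CPM of the oligodendrocyte markers had r = 0.983 with Hapln2 and 0.994 with Hapln4, that of the parvalbumin markers 0.973 and 0.976, and that of the microglia markers 0.941 and 0.94.
As deviations from group means, r with oligodendrocyte markers was 0.448 for Hapln2 and 0.87 for Hapln4, and 0.115 and 0.438 without WT library 2 at P7.
With parvalbumin markers these were 0.317 and 0.743, and −0.025 and 0.308 without that library.
These points share library, age and depth, and the part of the markers in the change of either gene was not tested.
From P35 to P70, 2 of the 8 mature oligodendrocyte markers were called lower and 6 were not called. By edgeR with all libraries neither Hapln2 (0.18, SE 0.136) nor Hapln4 (0.28, SE 0.146) was called in that step. The part of the markers was not tested there either.

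Tenascin-R, made by oligodendrocyte lineage cells and by interneurons that carry nets, increased most before birth.
Tnr had a lowest, median and highest level of 14.8, 30.8 and 45.2 CPM at E14, 84.7, 134 and 162.2 CPM at E18 and 103, 155 and 177 CPM at P7.
At P35 these were 211, 230 and 256 CPM and at P70 171, 231 and 260 CPM.
E14 lay below all later ages, E18 and P7 overlapped, and P35 and P70 overlapped.
Tnr rose 4.29-fold from E14 to E18 (log2 fold change 2.10, SE 0.115, adjusted p = 2.51e-20) and by 0.61 on the log2 scale from P7 to P35 (SE 0.109, adjusted p = 3.01e-06).
The step from E18 to P7 lay at the threshold (log2 fold change 0.22, SE 0.109, adjusted p = 0.0601), and it was called under DESeq2, under limma-voom, and when WT library 2 at P7 was left out (0.27, adjusted p = 0.021).
Leaving out WT library 2 or 5 at E14 or WT library 1 at E18 also brought the call (adjusted p = 0.049, 0.0192 and 0.0426). Oligodendrocyte precursor markers summed to 68.9 to 124 CPM at E14 and 172 to 240 CPM at E18, with 5 of 6 called higher. In that step 6 of 9 parvalbumin interneuron markers were called higher and 1 lower. From P7 to P35 1 precursor marker was called higher and 3 lower, while 8 of 8 mature oligodendrocyte markers were called higher. The part of these lists in the changes of Tnr was not tested.

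Tenascin-C, a matrix protein of radial glia and immature astrocytes, peaked at E18 and then fell to a small fraction of that level.
Tnc had a lowest, median and highest level of 44.4, 80.1 and 186 CPM at E14, 200, 229 and 298 CPM at E18 and 74.7, 88.9 and 136 CPM at P7.
At P35 these were 4.2, 5.44 and 6.25 CPM and at P70 2.91, 3.69 and 5.43 CPM.
E18 lay above all other ages and P35 and P70 below all earlier ones.
Tnc rose 2.61-fold from E14 to E18 (log2 fold change 1.39, SE 0.143, adjusted p = 1.01e-11), fell 2.5-fold from E18 to P7 (−1.32, SE 0.143, adjusted p = 2.77e-11) and fell 17.5-fold from P7 to P35 (−4.13, SE 0.169, adjusted p = 1.11e-25).
In the last of these steps 83 genes, 0.508%, changed more. Radial glia and progenitor markers summed to 503 to 838 CPM at P7 and 110 to 167 CPM at P35, with 7 of 8 called lower. From E14 to E18, when Tnc rose, 7 of 8 of them were called lower and 1 higher. In that step 6 of 8 astrocyte markers were called higher and 2 lower. The part of both lists in the changes of Tnc was not tested.
From P35 to P70 the log2 fold change was −0.54 (SE 0.18, adjusted p = 0.0481), a call lost in 37 of 50 fits that left out 1 library (adjusted p from 0.0122 to 0.0991) and under limma-voom.

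No gene of the 9 was called between Setd1a+/- and WT cortex in the fit of all libraries with age as a covariate. The 95% intervals of several genes were wide, and those of Acan, Hapln2 and Hapln4 reached 0.35, −0.39 and −0.28 on the log2 scale. In a later fit of the postnatal libraries alone Bcan was called.
By edgeR 0 of 9 were called, with 0 at an unadjusted p under 0.05, where 4.43% of all genes were called and 14.5% had such a p. DESeq2 and limma-voom also called 0, with 0 and 2 at an unadjusted p under 0.05.
The median size of the difference without regard to sign was 0.06 on the log2 scale for the 9 genes and 0.04 for all genes, and 3 of the 9 were higher in Setd1a+/- cortex.
The narrowest 95% interval was that of Vcan, whose log2 fold change of −0.0022 ran from −0.07 to 0.06, and its sign turned under 7 alternatives.
Ncan was at −0.04 (interval −0.12 to 0.03, adjusted p = 0.681) and Bcan at −0.09 (−0.21 to 0.02, adjusted p = 0.527).
Tnr, at 0.12 (−0.01 to 0.26, adjusted p = 0.438), had the smallest p of the 9 with all libraries in the fit.
Hapln2 was at −0.18 (−0.39 to 0.04, adjusted p = 0.499), Hapln1 at 0.07 (−0.13 to 0.26) and Acan at 0.06 (−0.24 to 0.35).
Hapln4 was at −0.05 (−0.28 to 0.18) and Tnc at −0.0056 (−0.19 to 0.18), both with a sign that turned under several alternatives.
Without the 3 libraries that stood apart 0 of the 9 were called as well, where 4.22% of all genes were called. Of the 9 genes, 1 then had an unadjusted p under 0.05, as did 14.2% of all genes. It was Ncan, at −0.08 (SE 0.0308, adjusted p = 0.17), and Hapln2 was at −0.09 (SE 0.0882, adjusted p = 0.756). In that fit Ncan had the smallest p and Tnr was at 0.08 (SE 0.0573, adjusted p = 0.613). Hapln4 went from −0.05 (SE 0.118) to 0.09 (SE 0.0523, adjusted p = 0.436), with an SE under its value with all libraries.
A p that misses the threshold does not show that the genotypes have the same level.

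**Figure D3:**
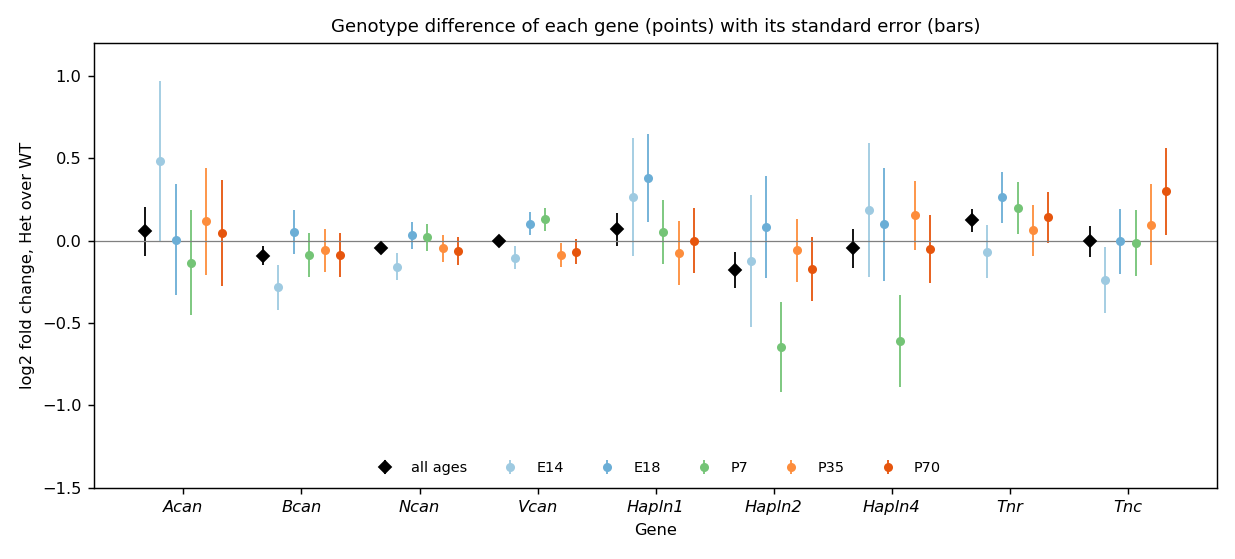
Log2 fold change of Setd1a+/- against WT for each of the 9 genes, over all ages with age as a covariate (diamonds) and at each age (circles), with bars of 1 SE from edgeR. The diamonds lie between −0.18 for Hapln2 and 0.12 for Tnr, and the bars at E14 are long for Acan, Hapln1, Hapln2 and Hapln4.

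The difference between genotypes was not found to vary with age.
The interaction of age and genotype was called for 0 of 9 genes, with 0 at an unadjusted p under 0.05, and for 0% of all genes, of which 1098 had an unadjusted p under 0.05. DESeq2 called 0 of the 9 and 21 genes in all, and limma-voom called 0 of the 9, with 1 at an unadjusted p under 0.05.
Vcan had the smallest interaction p, 0.0579 (adjusted p = 0.766).
At single ages edgeR called 0 of the 9 throughout. Of all genes, 0.129% were called at E14 and 0.11% at E18, while after birth the shares were 0.735% for P7, 0% for P35 and 0.233% for P70. DESeq2 and limma-voom called 0 of the 9 at each age as well.
An unadjusted p under 0.05 occurred for 1 gene at E14, 2 at P7 and 0 at the other ages, and without the 3 libraries that stood apart for 5 at E14, 1 at E18, 1 at P7 and 0 at P35 and P70. Of all genes, 11.6% had such a p at E14 and 8.86% at P7, and in the fit without the 3 libraries 23.7% at E14, 15.4% at E18 and 4.64% at P7.
The 5 at E14 in that fit were Bcan, Ncan, Vcan, Hapln1 and Tnc, and of these only Ncan was called. Bcan was at −0.31 (SE 0.14, adjusted p = 0.162) and Vcan at −0.15 (SE 0.0696, adjusted p = 0.191). Hapln1 went from 0.26 to 0.86 (SE 0.383, adjusted p = 0.157) and Tnc from −0.24 to −0.42 (SE 0.17, adjusted p = 0.112). Tnr, not one of the 5 (unadjusted p = 0.053, edgeR), went from −0.07 to −0.25 at E14 (SE 0.126, adjusted p = 0.218) and was not called. Without Setd1a+/- library 2 alone, which also stood apart, Hapln1 at E14 was at −0.0019 (SE 0.372, adjusted p = 1).
The interaction then had an unadjusted p under 0.05 for 2 of the 9, Vcan and Tnr, and was called for neither (adjusted p = 0.246 and 0.323), where 14.5% of all genes had such a p.
At P35, 0 of all genes were called by edgeR with 550 at an unadjusted p under 0.05, and 11 by DESeq2.

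At E14 the gene with an unadjusted p under 0.05 was Bcan.
Its levels in WT libraries 1 to 5 were 43, 41.1, 44.2, 43.1 and 39.3 CPM, and in Setd1a+/- libraries 51.8, 26.4, 28.9, 33.9 and 32.1 CPM.
Of the Setd1a+/- libraries, 4 were below every WT library and library 1 was above them all.
The lowest, library 2, was the one with high meningeal and endothelial markers. Its summed microglia markers (78.8 against 35.7 to 50.3 CPM) were also above the other 9 libraries, with 5 of 6 genes above. So were its summed oligodendrocyte precursor (124 against 68.9 to 92.9 CPM) and astrocyte markers (577 against 430 to 549 CPM). Of these, 2 of 6 precursor genes were above and 1 below, and 3 of 8 astrocyte genes were above. Its summed mature oligodendrocyte markers were below the other 9 (84.7 against 90.1 to 105 CPM), with 2 of 8 genes below. The part of these was not tested.
The log2 fold change was −0.28 (SE 0.137, adjusted p = 0.403, edgeR), and without Setd1a+/- library 1 it was −0.47 (adjusted p = 0.0344), in a fit that called 2.61% of all genes. Without Setd1a+/- library 2 it was −0.20 (SE 0.141, adjusted p = 1), in a fit that called 0.0549%.
Ncan at E14 was at 565, 618, 567, 477 and 382 CPM in WT and at 527, 500, 451, 456 and 404 CPM in Setd1a+/- libraries.
The lowest of these was WT library 5, which held Xist counts and whose Tnr (14.8 CPM) and Tnc (44.4 CPM) were also below the other 9 libraries of E14.
Its summed red blood cell markers were 1030 CPM against 255 to 950 CPM in the others, with 2 of 5 genes above. Its radial glia and progenitor markers summed to 2140 CPM against 1560 to 2080 CPM, with 4 of 8 genes above. Its sums were below the others for parvalbumin interneuron (181 against 197 to 400 CPM, 4 of 9 genes below), oligodendrocyte precursor (68.9 against 70 to 124 CPM, 3 of 6) and striatum markers (67.2 against 82.2 to 124 CPM, 4 of 6). The part of these was not tested.
The log2 fold change of Ncan was −0.16 (SE 0.0831, adjusted p = 0.473), and −0.25 without WT library 5 (adjusted p = 0.0437, with 4.55% of genes called) or without all 3 libraries that stood apart (adjusted p = 0.0215), where 7.11% of genes were called.
Neither gene was called at E14 with all libraries in the fit, and these calls came only when 1 library or the 3 libraries were left out.

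At P7 the 2 genes with an unadjusted p under 0.05 were Hapln2 and Hapln4, and both differences came with WT library 2.
Hapln2 was at 1.07, 2.26, 0.636, 0.97 and 0.553 CPM in WT and at 0.622, 0.414, 0.669, 0.985 and 0.837 CPM in Setd1a+/- libraries.
Hapln4 was at 2.17, 10.2, 1.49, 1.75 and 2.1 CPM in WT and at 2.3, 2.82, 2.01, 2.35 and 2.33 CPM in Setd1a+/- libraries.
With WT library 2 set aside, the groups of each gene overlapped.
The log2 fold changes were −0.65 for Hapln2 (SE 0.273, adjusted p = 0.418) and −0.61 for Hapln4 (SE 0.28, adjusted p = 0.491).
Without the 3 libraries that stood apart they were −0.20 (adjusted p = 1) and 0.33 (SE 0.144, adjusted p = 0.907), so that the sign of Hapln4 turned.
In WT library 2 Tnc, at 136 CPM, was also above the other 9 libraries (74.7 to 107 CPM), and Ncan (528 against 657 to 728 CPM), Vcan (108 against 111 to 143 CPM) and Tnr (103 against 151 to 177 CPM) were below them.
Of its markers, 8 of 8 mature oligodendrocyte and 6 of 6 choroid plexus genes were above the other 9 libraries. Of 8 astrocyte genes, 7 were above and 1 below. Excitatory neuron markers summed to 1200 CPM against 1730 to 2000 CPM, with 4 of 6 genes below and 1 above. Its parvalbumin interneuron markers summed to 428 CPM against 280 to 367 CPM but were split, with 3 of 9 genes above and 3 below. Summed precursor (4 of 6 genes above, 2 below), radial glia (5 of 8 above, 0 below) and thalamus markers (3 of 6 above, 1 below) were also above the other 9. Its striatum markers were below them (83.6 against 111 to 397 CPM, 5 of 6 genes below).
Between genotypes at P7, 3 of 8 mature oligodendrocyte, 2 of 9 parvalbumin interneuron, 1 of 6 choroid plexus and 1 of 6 thalamus markers were called lower in Setd1a+/- cortex. Of all genes 120 were called at P7, and 7 without WT library 2. The part of these markers in the differences of Hapln2 and Hapln4 was not tested.

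**Figure D4:**
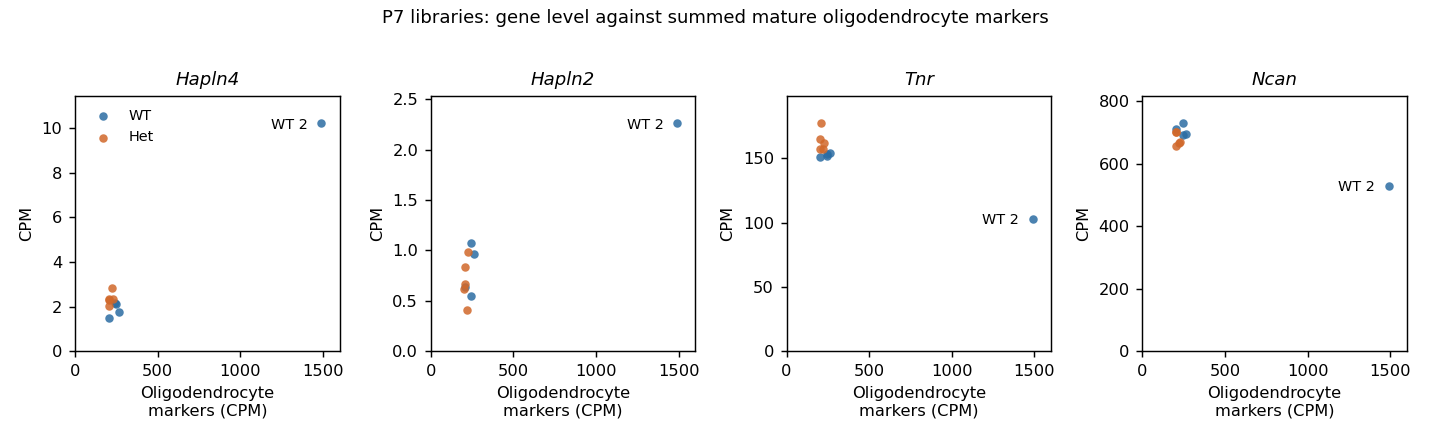
Levels of Hapln4, Hapln2, Tnr and Ncan in CPM (vertical, linear axes from 0) against the summed CPM of mature oligodendrocyte markers (horizontal) in the 10 libraries at P7, with WT and Setd1a+/- libraries (Het) in 2 colours. WT library 2 lies alone at 1490 CPM of markers, highest for Hapln4 and Hapln2 and lowest for Tnr and Ncan.

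Groups did not overlap for 2 of the 9 genes, each at 1 age.
Tnr at P7 was at 151.7, 103.3, 151.1, 154.2 and 153.5 CPM in WT and at 165.2, 156.6, 177.2, 162.3 and 157.1 CPM in Setd1a+/- libraries, higher in the latter with or without WT library 2.
At P7 groups did not overlap for 2.23% of all genes, and the log2 fold change of Tnr was 0.20 (SE 0.155, adjusted p = 0.808), or 0.10 (SE 0.121, adjusted p = 1) without the 3 libraries that stood apart.
Tnr was also nominally higher in Setd1a+/- cortex at E18 (0.26), P35 (0.06) and P70 (0.14), none of them called, and at −0.07 at E14.
Bcan at P35 was at 324, 325, 311, 322 and 316 CPM in WT and at 301, 306, 311, 307 and 308 CPM in Setd1a+/- libraries.
The lowest WT library lay above the highest Setd1a+/- library by less than the rounding of these values, and groups did not overlap for 2.25% of genes at P35. The share was 0.784% at E14, 2.22% at E18 and 1.79% at P70, with 0 of the 9 genes at each.
Bcan at P7 was at 295, 282, 296, 302 and 302 CPM in WT and at 280, 276, 271, 280 and 282 CPM in Setd1a+/- libraries, and at P70 at 301, 285, 276, 286 and 299 CPM against 264, 266, 283, 267 and 283 CPM.

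The mean of Bcan in Setd1a+/- cortex was 94%, 95.9% and 94.2% of the WT mean at P7, P35 and P70, and it was not called at any of them (log2 fold changes of −0.09, −0.06 and −0.09, adjusted p = 0.929, 1 and 1).
A fit of the 30 postnatal libraries alone was added after these values were seen, and so restates them and is no independent test. It gave a log2 fold change of −0.08 (SE 0.017, adjusted p = 0.00631, with 4.07% of genes called), whereas the 20 embryonic libraries alone gave −0.11 (SE 0.146, adjusted p = 1) and all ages together did not call Bcan (adjusted p = 0.527).
Its WT levels at E18 ran from 55.2 to 116 CPM, a wider relative spread than at any postnatal age. The tests at single ages used an estimate of each gene's spread shared by all ages, embryonic ones included. With it the SE of Bcan was 0.133 at P7, P35 and P70.
The difference is small beside the 3.69-fold rise of Bcan from E18 to P7.
Summed astrocyte markers were 1790 ± 223 CPM (SD, n = 5) in WT and 1660 ± 84.5 CPM in Setd1a+/- cortex at P7, 4250 ± 149 against 4190 ± 92.5 CPM at P35, and 4180 ± 224 against 4260 ± 24.9 CPM at P70. Their part in the difference of Bcan was not tested.
In the same postnatal fit Tnr was at 0.14 (SE 0.0529, adjusted p = 0.169) and was not called.

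The other genes of the pathway were followed through 6 lists with 78 genes, of which 75 were tested. From E14 to P70, 39 were called higher and 29 lower, where 44.7% of all genes were called higher and 45.1% lower.
Of 10 tested genes that make or break hyaluronan, 4 were called higher and 6 lower.
Cemip2, which cuts hyaluronan at the cell surface, had a log2 fold change of −2.96 (SE 0.0588), and Hyal2, a hyaluronidase, one of −2.20 (SE 0.0566).
Of 5 hyaluronan receptors, Stab2 (0.71, SE 0.196) and Cd44 (0.34, SE 0.124) were called higher and 3 lower, among them Hmmr (−5.06, SE 0.167), which also acts on the mitotic spindle, and Lyve1 (−1.48, SE 0.441).
Each of these named genes had an adjusted p of 0.011 or less by edgeR.

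Of 20 genes for the synthesis and sulfation of chondroitin sulfate, the sugar chain that lecticans carry, 13 were called higher and 5 lower.
Csgalnact1, which starts the chain, rose by 3.28 on the log2 scale (SE 0.1) and Chsy3, which lengthens it, by 2.73 (SE 0.118), while Chsy1, another enzyme of chain growth, was at −1.87 (SE 0.0545) and Chst14, which sulfates dermatan, at −1.84 (SE 0.137).
Of 14 matrix proteases and inhibitors, 5 were called in each direction, led by the inhibitors Timp4 (3.92, SE 0.122) and Timp3 (2.18, SE 0.15) and by the metalloproteases Mmp9 (−3.28, SE 0.137) and Mmp14 (−2.85, SE 0.0834).
Of 13 matrix receptors and net-bound proteins, 7 were called higher and 6 lower.
Nptx2, a pentraxin that gathers glutamate receptors on interneurons, was at 4.24 (SE 0.132) and the receptor Rtn4rl1 at 3.91 (SE 0.0769), and Otx2, a homeoprotein that nets take up, at −5.46 (SE 0.578) and Ptprs, a receptor for chondroitin sulfate, at −1.40 (SE 0.0464). Otx2 is also a gene of the choroid plexus, whose summed markers ran from 6.49 to 482 CPM at E14 and from 181 to 243 CPM at P70, with 3 of 6 called lower and 2 higher. Their part in the fall of Otx2 was not tested.
Of 13 other proteoglycans and family members, 8 were called higher, with Spock3 (4.09, SE 0.158) and Fmod (3.20, SE 0.363) first, and 4 lower, with Lum (−1.96, SE 0.466) and Reln (−1.72, SE 0.0995) last. Lum is also one of the 7 meningeal fibroblast markers, of which 5 were called lower over the same ages. It had 993 counts in Setd1a+/- library 2 at E14 and 1 to 489 in the other 9 libraries, and without that library its log2 fold change was −1.59 (SE 0.449, adjusted p = 0.0012). The part of the meningeal markers was not tested.
With all libraries in the fit, the named genes of these lists had an adjusted p of 0.000157 or less.

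For the genotype effect over all ages, 0 of the 75 pathway genes were called by edgeR, DESeq2 or limma-voom, with 4, 4 and 6 at an unadjusted p under 0.05. By edgeR 4.43% of all genes were called and 14.5% had such a p.
Csgalnact1 had the smallest p under edgeR, at a log2 fold change of 0.13 (adjusted p = 0.211).
At single ages edgeR called 1 gene, Otx2 at P7 (log2 fold change −3.31, SE 0.79, adjusted p = 0.0332), named after its values were seen, where 0.735% of all genes were called. DESeq2 called it as well (adjusted p = 0.00538), and limma-voom called 0 of the 75 at P7, with 3 at an unadjusted p under 0.05. At E14, where 0 of the 75 were called, 19 had an unadjusted p under 0.05 by edgeR, 18 by DESeq2 and 7 by limma-voom, and 11.6% of all genes had such a p by edgeR. Setd1a+/- library 2 at E14 stood apart in meningeal and endothelial markers. The median genotype log2 fold change at E14 was 1.77 for meningeal fibroblast and 0.67 for endothelial and pericyte markers, none of them called. The part of these markers in the 19 genes was not tested.
Otx2 was at 16.6 CPM in WT library 2 at P7 and at 0.0836 to 0.674 CPM in the other 9 libraries of that age, and without the 3 libraries that stood apart its log2 fold change was 0.03 (adjusted p = 1).
The choroid plexus markers stood apart in that library.

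The genes whose log2 CPM followed each of the 9 most closely over the 50 libraries were found by Pearson r, which here is driven by the 5 ages the libraries share.
They were Syt10, Synpr and Cpne4 for Acan (r = 0.967, 0.962 and 0.962), and Slc25a18, Camk4 and Rapgefl1 for Bcan (0.986, 0.984 and 0.983).
For Ncan they were Nav1, Ptprz1 and Erc1 (0.987, 0.982 and 0.981), and for Vcan Jpt1, Atat1 and Traf4 (0.996, 0.995 and 0.995).
For Hapln1 they were Gng12, Pdha1 and Cplx3 (0.987, 0.979 and 0.978).
Hapln2 and Hapln4 shared Lzts3 (0.987 and 0.992) and Tmem88b (0.986 and 0.993), joined by Igfn1 (0.985) for Hapln2 and by Mt1 (0.991) for Hapln4.
For Tnr they were Lrrtm2, Mlip and Dok6 (0.983, 0.982 and 0.982), and for Tnc Camsap3, Trim67 and 4931428F04Rik (0.988, 0.986 and 0.986).

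For the neighbouring pairs, r of log2 CPM over the 50 libraries, which reflects the shared ages, was 0.755 for Bcan and Hapln2, −0.878 for Ncan and Hapln4, and −0.785 for Vcan and Hapln1. As deviations from group means it was 0.076, −0.254 and −0.285, and without WT library 2 at P7 it was 0.111, 0.244 and −0.303.
Ncan was at its highest at P7 and Hapln4 at P70, Vcan at E14 and Hapln1 at P7. Bcan, at its highest at P35, and Hapln2, at its highest at P70, were both called higher from E14 to E18 and from E18 to P7. So were Ncan and Hapln4, while Vcan was called lower and Hapln1 higher in these steps.
Other pairs had higher within-group values, which shifted with the libraries used. Ncan and Tnr had r = 0.636 over all groups, 0.59 without WT library 2 at P7 and 0.432 over the 20 libraries of P35 and P70.
In the same order r was 0.468, 0.61 and 0.126 for Tnr and Tnc, and 0.407, 0.626 and 0.264 for Ncan and Tnc.
It was 0.345, 0.314 and 0.637 for Acan and Tnr, and 0.196, 0.647 and −0.067 for Acan and Hapln4.
These are descriptions over libraries that share dissection, depth and age, and no test was made of them.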

How the data were processed

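RNA sequencing of 50 mouse frontal cortex libraries was analysed, 10 groups of 5 libraries by age and genotype taken from the sample labels. The authors trimmed reads with Trimmomatic, checked them with FastQC, aligned them to GRCm38 with STAR and, with featureCounts, assigned read pairs to Ensembl gene exons regardless of strand. The deposited values are these raw counts per gene, with no normalization by the authors. Protein-coding genes of GENCODE vM21 were kept by edgeR's filterByExpr (minimum count 10, at least 5 libraries), which left 16330. Counts were scaled by TMM and fitted by edgeR 4.0.16 (R 4.3.3, limma 3.58.1), with genotype and age as terms, with their interaction, or with 10 groups, and p-values were adjusted over all genes by the Benjamini-Hochberg method. Age steps average both genotypes. Age steps and single ages come from the fit of 10 groups, in which all ages share an estimate of each gene's spread. SE was derived from the log2 fold change and its quasi-likelihood F. CPM used the TMM-scaled counts of tested genes, RPKM divided CPM by exon length, and log2 CPM used a prior count of 2.

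The 9 genes and all gene lists were chosen with earlier results of these data known. Named were the 9 genes, for each the 3 genes with the highest r, pathway genes called for genotype, and in each pathway list the 2 genes with the highest and the 2 with the lowest called change from E14 to P70. The higher genes of the list for hyaluronan synthesis and breakdown are not reported here by name. Labels do not say which mice share a litter, so p-values measure the spread between these samples. The fits were tested on simulated counts. Alternatives were DESeq2 1.42.0, its size factors in edgeR, limma-voom, library size only, other filters, RNA integrity as a covariate, single genotypes, a block for replicate number, CPM shares and leaving out each library. Leaving out 3 libraries together, and postnatal or embryonic libraries alone, were added after seeing the data. The depth of each library makes counting error small except where counts were low. These were Acan, Hapln1, Hapln2 and Hapln4 in embryos and Hapln2 and Hapln4 at P7 (from 15 and 54 counts). To a lesser degree they were also Acan after birth (from 105 counts) and Tnc at P35 and P70 (from 144 and 98 counts). Figures were drawn with matplotlib 3.10.9. The synaptosome proteins of the study were not analysed here.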

Additional observations from a re-analysis of the deposited data

Results flagged for a closer look

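Within groups of 5 libraries, the highest or lowest library was set against the others by Dixon's ratio of gap to range, with a critical value of 0.71. It was passed in 7 of 90 tests, where chance passes about 1 in 20. WT library 2 at P7 accounted for 3 of the 7, with Ncan at 528 CPM where the other WT libraries of that age had 691 to 728 CPM, Tnr at 103 CPM beside 151 to 154 CPM, and Hapln4 at 10.2 CPM beside 1.49 to 2.17 CPM. WT library 5 at P35 was above its group for 2 genes that neighbour each other on chromosome 13, Vcan at 28.4 CPM beside 24.3 to 24.8 CPM and Hapln1 at 32.4 CPM beside 22.8 to 25.1 CPM. Tnr in WT library 4 at E18 was at 84.7 CPM beside 119 to 137 CPM. Tnc in Setd1a+/- library 5 at P7 was at 107 CPM beside 86.2 to 90.6 CPM.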

How the results depend on the processing

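Setd1a+/- and WT calls among the 9 genes held at 0 over all ages under every alternative except the postnatal libraries alone, where 1 was called (Bcan). At E14, 1 of the 9 was called without the 3 libraries that stood apart, and 0 to 1 when single libraries were left out. Under limma-voom 5 of the 9 were called from P35 to P70 (Ncan, Vcan, Hapln1, Hapln2 and Hapln4, with 10.1% of all genes called), and with WT or Setd1a+/- libraries alone 1 each, of 173 and 487 genes called. Counts of genes called by genotype moved more. Embryonic libraries alone gave 27. DESeq2 gave 21 for the interaction, 114 at E14, 111 at E18, 11 at P35 and 77 at P70, and its size factors in edgeR gave 2 at P35. Limma-voom gave 10 at E18 and 16 at P7, library size only gave 3 at E14, and RNA integrity as a covariate gave 1 at E18. A minimum of 10 CPM gave 9 at E14, 7 at E18, 59 at P7 and 1 at P35. Without the 3 libraries that stood apart the counts were 48 for the interaction, 1164 at E14, 1.9e+02 at E18 (1.17% of genes), 9 at P7 and 5 at P35. Leaving out 1 library gave 0 to 5 for the interaction, 1 to 747 at E14 (most without WT library 5), 7 to 151 at E18 (most without Setd1a+/- library 2 at E14, which stood apart in meningeal and endothelial markers, and fewest without Setd1a+/- library 2 at E18), 7 to 212 at P7 (fewest without WT library 2), 0 to 5 at P35 and 7 to 92 at P70.

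With the replicate block the counts were 3 for the interaction, 37 at E18, 20 at P7 and 3 at P35, and no genotype call among the 9 genes changed. The block pairs genotypes within an age, so it was not run for the age steps. Same-numbered libraries showed no clear pairing. Of 25 pairs, 9 had a correlation of deviations over 0.1 (range −0.204 to 0.46). In 7 of them the own number correlated best among 5 candidates. These counts cannot show that no libraries were paired.

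Signs of small genotype differences turned, none of them called and their cause not tested. Vcan was at 0.0043 under DESeq2, 0.012 under limma-voom, 0.0032 with DESeq2 size factors, 0.0016 with a minimum of 10 CPM, 0.00028 with the replicate block, 0.0018 in postnatal and 0.001 in embryonic libraries. Hapln4 was at 0.047 under limma-voom, 0.011 with the replicate block, 0.094 without the 3 libraries and 0.14 in embryonic libraries, and at P7 at 0.33 without the 3 libraries. Tnc was at 0.024 under DESeq2, 0.00032 with its size factors, 0.027 with the block and 0.095 in postnatal libraries, and Hapln1 at −0.007 in postnatal libraries. Tnr from P35 to P70 was at 0.0087 in Setd1a+/- libraries. Leaving out 1 library gave genotype ranges of −0.012 to 0.11 for Acan, −0.017 to 0.0088 for Vcan, −0.071 to 0.1 for Hapln4 and −0.041 to 0.081 for Tnc, of −0.8 to 0.33 for Hapln4 at P7, and of −0.065 to 0.0086 for Tnr from P35 to P70. At E14 the SE of the genotype difference was 0.359 to 0.486 for Acan, Hapln1, Hapln2 and Hapln4. Counts there were low (from 3 for Hapln2). Without the 3 libraries the SE went from 0.486 to 0.529 for Acan, from 0.359 to 0.383 for Hapln1, from 0.4 to 0.373 for Hapln2 and from 0.406 to 0.195 for Hapln4, and that of Hapln4 at P35, with 3661 or more counts, from 0.207 to 0.085.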
